A study of Mus musculus with 9 samples.

Results

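Knockdown of Dnmt3b in cultured embryonic mouse heart cells was compared with a control siRNA over all genes, from 6 of the 9 RNA-seq libraries of a series on the de novo DNA methyltransferases. The members are the 3 libraries labelled DNMT3b siRNA and the 3 labelled negative siRNA, taken by their titles. The remaining 3 libraries received DNMT3a siRNA. Cells of both groups came from ventricles of CD-1 embryos, an outbred stock, at embryonic day 13.5, with the tissue of a litter pooled before digestion with papain. Cells slow to attach to uncoated plastic were kept, grown for 48 h, and transfected by lipofection with 0.012 pmol of siRNA. One group received a pool of 4 siRNAs against Dnmt3b and the other a commercial non-targeting siRNA, so the controls also carried a transfected siRNA. At 72 h the cells were sorted with magnetic beads for VCAM1, a surface protein of embryonic cardiomyocytes, and poly(A) RNA was sequenced. A transient knockdown in pooled cells of a culture limits what the groups model: DNMT3B protein and DNA methylation were not analysed here, and single embryos cannot be told apart. The labels do not give the cultures or litters behind each library, so every p-value here measures the spread between libraries, and that spread may be technical.

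DNMT3B and DNMT3A place new methyl groups on cytosines of CpG sites, and DNMT1 copies existing marks after replication. Promoter methylation is known to hold germline genes, one allele of imprinted genes and many repeats silent in somatic cells. In the embryonic heart these enzymes act while cardiomyocytes switch on sarcomere and mitochondrial genes, and the ventricle also holds fibroblasts, epicardium, endocardium, vessels and macrophages.

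Between 27852412 and 35896018 reads were counted in genes per library over the 9 libraries, and the 6 compared here covered that whole range. The share of alignments in no annotated feature was 8.40% to 10.2% in controls and 9.32% to 11.9% in knockdown libraries, and the number of genes with at least 1 read was 23373 to 24204 and 23491 to 25190, so both overlapped. Control library 2 stood apart from the other controls. On the axis of largest variance among the 6 libraries, which held 59.2% of it, control 2 lay at -0.81, controls 1 and 3 at -31.0 and -28.9, and the DNMT3b libraries at 11.3, 24.0 and 25.6. DNMT3b libraries 2 and 3 were the most alike of any replicate pair, with a chi-square of 6.94 per degree of freedom. The other pairs within a group had 21.98 to 65.0, and even DNMT3b libraries 2 and 3 differed by more than sampling noise. DNMT3a library 2 also stood apart from its group, at 52.3 and 59.9 against 21.98 between DNMT3a libraries 1 and 3.

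The cells carry a cardiomyocyte label, and all 10 cardiomyocyte markers passed the filter on low counts, but fibroblast transcripts were abundant. Per kilobase of exon, control libraries held 244.5 ± 43.5 CPM (a gene's reads scaled to a common library size; SD, n = 3) of Actc1, cardiac actin, and 103 ± 17.3 of Tnnt2, cardiac troponin T. On the same scale Col1a1, a fibrillar collagen chain, stood at 3650 ± 908. The pool is therefore described below as sorted ventricular cells. In such bulk libraries, fewer cells of a type and less RNA per cell cannot be told apart.

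Dnmt3b (ENSMUSG00000027478, GRCm38 chr2:153649450-153687730, plus strand), the targeted gene, was a low transcript. Its level was 4.32, 4.26 and 4.33 CPM in controls 1 to 3 and 1.17, 2.43 and 1.51 CPM in DNMT3b libraries 1 to 3, from 117 to 155 and 38 to 75 reads. The groups did not overlap, and DNMT3b library 2 kept the most transcript. The fitted log2 fold change was -1.34 (SE 0.23, adjusted p = 0.00816 by edgeR's quasi-likelihood test), which left 0.396 of the control level. Without DNMT3b library 3 the same test gave -1.28 and adjusted p = 0.0538. The DNMT3a libraries held 4.76 ± 0.0964 CPM (SD, n = 3), close to the control level. Dnmt3a itself had a log2 fold change of -0.18 (adjusted p = 0.348) and Dnmt1 of -0.03 (adjusted p = 0.915). Among 19 tested writers, erasers and readers of DNA methylation, 2 fell and none rose, against 2.12% and 3.52% of all genes. The 2 include Dnmt3b, the siRNA target, so the share that fell is raised by the design. The other that fell was Mbd1, which encodes a methyl-CpG-binding protein. It went from 64.0, 102 and 94.4 CPM in controls to 45.4, 40.002 and 39.2 CPM (log2 fold change -1.06, SE 0.17, adjusted p = 0.00616), and it was also low in the DNMT3a libraries, at 51.6 ± 7.45 CPM (SD, n = 3).

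Of 16561 genes tested, 934 (5.64%) differed between DNMT3b and control siRNA at an adjusted p under 0.05. Higher genes were 583 (3.52%) and lower genes 351 (2.12%), so 62.4% of the changes were upward. Rises were also larger, with a median size of 1.005 on the log2 scale against 0.556 for falls, and 295 genes rose at least 2-fold while 55 fell that far. The median log2 fold change over all tested genes was 0.00180, near no shift. The 3 DNMT3b libraries lay wholly above the 3 controls for 2285 genes (13.8%) and wholly below for 2037 (12.3%).

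**Figure D1:**
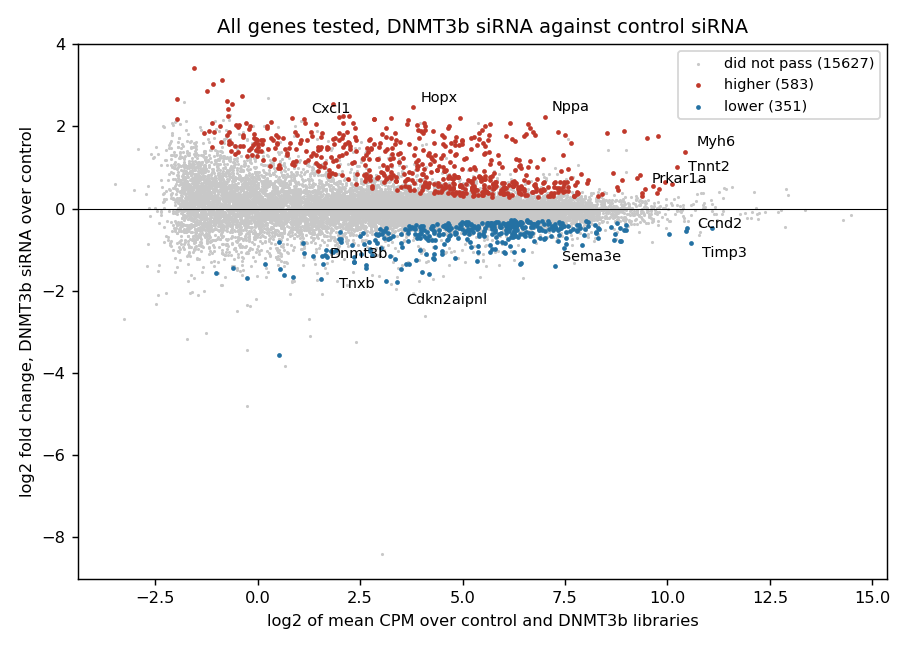
Each point is 1 of 16561 tested genes, with the log2 of its mean CPM over the 6 libraries across and the log2 fold change of DNMT3b siRNA over control upward. The 583 higher genes (red) reach larger fold changes than the 351 lower genes (blue), and the other genes did not pass (grey).

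The size of the list rested on single libraries. It fell to 287 genes without DNMT3b library 3, 384 without DNMT3b library 2, 449 without control 3 and 534 without control 1, and rose to 1781 without control 2. DESeq2 in place of edgeR called 1715 genes, of which 51.3% were higher. Without DNMT3b library 2, 77.9% of the called genes were higher. None of the 934 changes turned its sign under any of these settings. The settings reuse most of the libraries that gave the calls, so the signs could hardly turn.

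The largest rises included genes of heart muscle. They were taken from changed protein-coding genes whose mean log2 CPM reached 2 and whose groups did not overlap, and the top 12 ran from 2.07 to 2.47 on the log2 scale. Hopx (chr5:77086988-77115121, minus strand), a homeodomain-only cofactor of heart development, had 2.68, 6.05 and 4.07 CPM in controls and 22.7, 20.5 and 27.4 CPM after DNMT3b siRNA. The groups were far apart, and the log2 fold change was 2.47 (SE 0.37, adjusted p = 0.0068). Nebl (chr2:17343909-17731464, minus strand), the thin-filament protein nebulette, went from 25.1, 29.5 and 27.7 CPM to 133, 93.3 and 119 CPM (log2 fold change 2.07, SE 0.12, adjusted p = 5.69e-05). Nppa, the precursor of atrial natriuretic peptide, rose from 34.5, 58.8 and 41.6 CPM to 184, 199 and 253 CPM. The remaining 9 were the sarcomere genes Lmod3, Csrp3 and Tmod1, the heart gene Lrrc10, the potassium channel gene Kcnq1, Pirt, Adprhl1, Nlrp10 and the water channel gene Aqp4. Counting by strand is not stated, and Hopx, Nppa, Tmod1 and Kcnq1 share exon sequence with a gene on the opposite strand, so reads of the 2 partners cannot be told apart there. The same holds for Timp3, Ccn2, Ccnd2, Fbn1, Myh6, Atp2a2, B3gnt7, Pcdh19, Mest, Lcp1, Col4a3, Rspo3, Cryab, Atf5 and Hmgcs1, described further on.

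The largest falls were unlike one another in function. Cdkn2aipnl (chr11:51967661-51977334, plus strand), which encodes a small relative of the CDKN2A-interacting protein, had the largest fall of the 12. Its level was 15.9, 16.5 and 17.0 CPM in controls and 5.04, 3.88 and 5.33 CPM after DNMT3b siRNA. That is 3.47-fold lower (log2 fold change -1.79, SE 0.14, adjusted p = 0.000148), with little spread in either group. Tnxb, the matrix protein tenascin-X, went from 15.3, 10.9 and 14.1 CPM to 3.20, 5.15 and 3.58 CPM (log2 fold change -1.76, adjusted p = 0.00223). Sema3e, a secreted guidance cue of the semaphorin family, went from 243, 185 and 236 CPM to 94.8, 80.1 and 74.8 CPM (log2 fold change -1.41, adjusted p = 0.000329). The groups of both genes were separate. The receptor genes Olr1, for oxidised low-density lipoprotein, and Cmklr1, for chemerin, fell by 1.60 and 1.54 on the log2 scale. Pid1, Ifi27l2b, B3gnt7, Fndc1, Trim12c, the protocadherin gene Pcdh19 and Mdfic completed the 12, with falls from 1.47 down to 1.33. Pcdh19 (adjusted p = 0.0359), Fndc1 (0.0244) and Ifi27l2b (0.0128) lost the call in 8, 6 and 2 of 18 other settings, each without DNMT3b library 3 and without control 3 among them. Trim12c and Ifi27l2b have close paralogs, so their counts are uncertain.

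**Figure D2:**
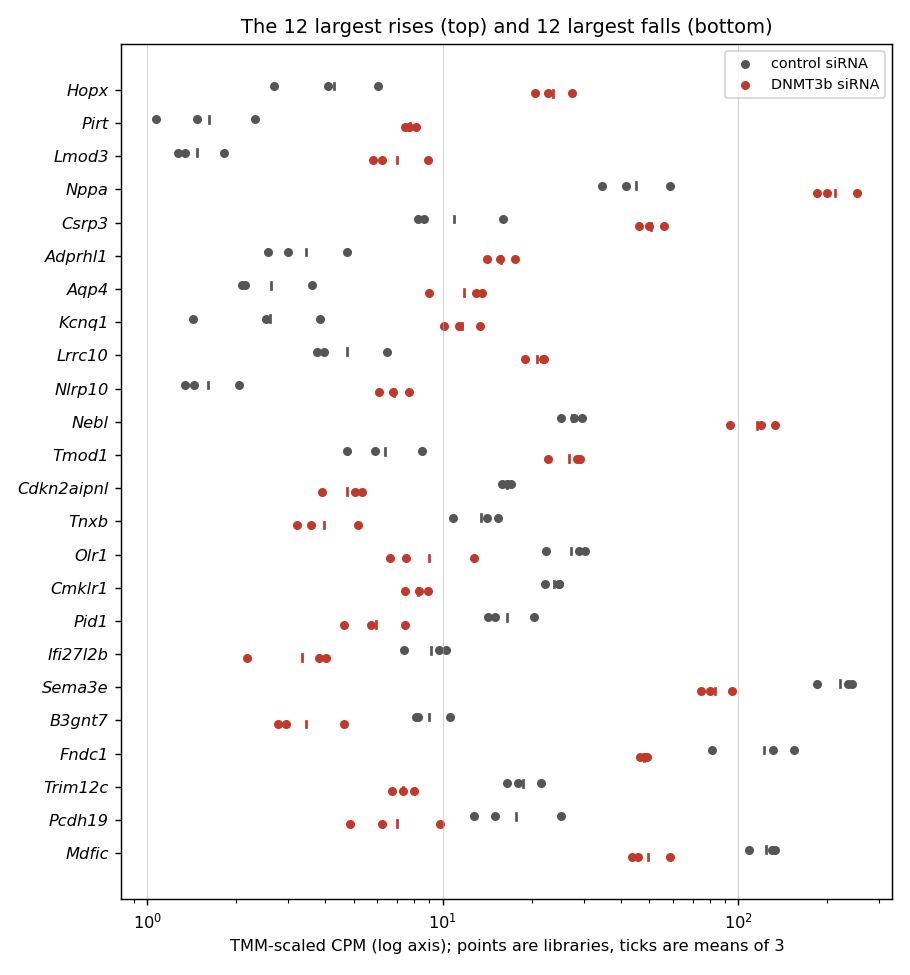
TMM-scaled CPM on a log axis for the 12 largest rises (top rows) and the 12 largest falls (bottom rows), with a point for each library and a tick at the mean of 3. The 3 control points and the 3 DNMT3b points of each gene do not overlap, a condition of the choice, and Cdkn2aipnl has its controls within 15.9 to 17.0 CPM.

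The most abundant genes that changed moved less. Myh6, the alpha heavy chain of cardiac myosin, went from 567, 818 and 920.0 CPM to 1869, 1915 and 2235 CPM (log2 fold change 1.38, SE 0.18, adjusted p = 0.00218). Ccn2, a matricellular growth factor also known as CTGF, went from 737, 976 and 942 CPM to 1296, 1380.0 and 1351 CPM (log2 fold change 0.60, adjusted p = 0.0211). Tnnt2 rose by 1.00 and Atp2a2, the calcium pump of the sarcoplasmic reticulum, by 0.65. Of the fallen genes, Timp3, a matrix-bound inhibitor of metalloproteinases, went from 2110.4, 1907 and 1868 CPM to 1208, 1071 and 1036 CPM (log2 fold change -0.83, SE 0.11, adjusted p = 0.0020). Ccnd2, which encodes cyclin D2, fell by 0.55, the collagen chaperone gene Serpinh1 by 0.48 and the fibrillin gene Fbn1 by 0.47. All of these groups were separate, with Ccnd2 at 1521 to 1887 CPM in controls and 1084 to 1234 CPM after knockdown. The call of Serpinh1 was lost in 7 of 18 other settings, that of Fbn1 in 5, that of Ccn2 in 4 and that of Ccnd2 in 3, each time without DNMT3b library 3 among them.

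Heart muscle genes rose together. Of 34 tested sarcomere genes 27 rose and none fell, where 3.52% of all genes were higher and 2.12% lower. Their median log2 fold change was 1.68 against 0.00180 over all genes. Of 34 genes of calcium handling and ion channels 19 rose and 1, the potassium channel gene Kcnj5, fell, with a median of 1.02. Of 26 heart transcription factors and natriuretic peptides 8 rose and none fell. Among the regulators, Nkx2-5, an early cardiac homeobox factor, went from 13.6, 16.2 and 13.8 CPM to 38.9, 40.9 and 46.9 CPM (log2 fold change 1.54, SE 0.11, adjusted p = 5.69e-05). Ryr2, the calcium release channel, rose by 1.85 (adjusted p = 0.000429). Synpo2l rose by 1.68, Lmod2 by 2.05, the myosin methylase gene Smyd1 by 1.69 and Nppb, the precursor of brain natriuretic peptide, by 1.84. Myl7, the atrial myosin light chain, did not follow: it had 105, 135 and 90.8 CPM in controls and 102, 113 and 96.2 CPM after DNMT3b siRNA (log2 fold change -0.09, adjusted p = 0.816). Summed over the 10 cardiomyocyte markers, controls held 2270.1 to 2814 CPM and DNMT3b libraries 6161 to 7481 CPM. Without DNMT3b library 3, 22 sarcomere genes and 9 of the calcium and channel genes rose, and without DNMT3b library 2, 24 and 12 did.

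**Figure D3:**
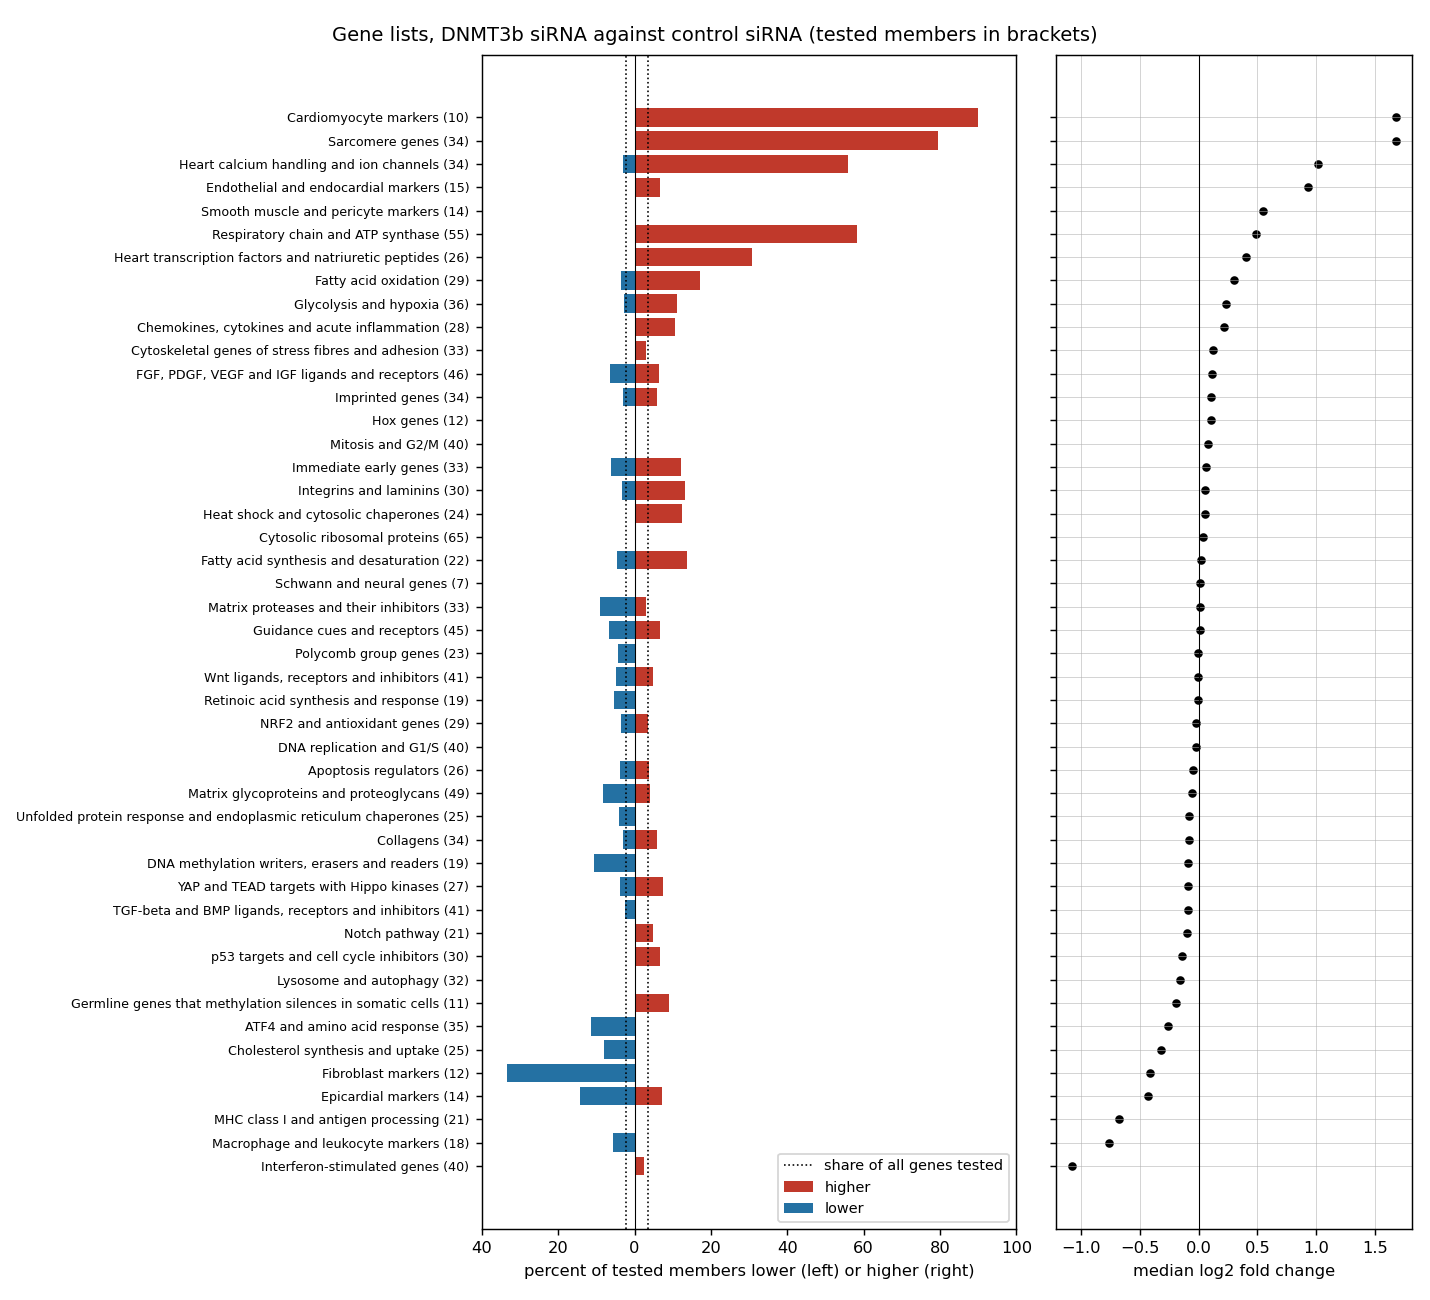
For each gene list with at least 3 tested members (number in brackets), the left panel gives the percent of members higher (red) or lower (blue) and the right panel the median log2 fold change. Dotted lines mark the 3.52% and 2.12% of all genes that were higher and lower; sarcomere genes and the respiratory chain stand far to the right of the first line, and interferon-stimulated genes have the lowest median with 1 member called.

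Nuclear genes of the mitochondrial respiratory chain formed the widest group of moderate rises. Of 55 tested members 32 rose, against 3.52% of all genes, and none fell. The median log2 fold change was 0.49, and for 52 of 55 all DNMT3b libraries lay above all controls, against 13.8% of all genes. Rises were found in each complex: 9 of 20 members of complex I, 2 of 4 of complex II, 5 of 7 of complex III, 9 of 12 of complex IV and 7 of 11 of the ATP synthase, while Cycs, cytochrome c, did not pass (log2 fold change 0.29). Uqcrfs1, the Rieske iron-sulfur subunit of complex III, went from 87.6, 93.3 and 84.5 CPM to 126, 130.2 and 135 CPM (log2 fold change 0.56, SE 0.07, adjusted p = 0.00143). Ndufa1 of complex I rose by 0.74. In complex IV the heart and muscle isoforms Cox7a1 and Cox8b rose by 1.83 and 2.07, and the widely expressed isoform Cox8a by 0.66. Cox7a1 was low, at 1.23, 2.60 and 1.37 CPM in controls and 6.89, 5.92 and 5.71 CPM after knockdown. The summed level of the list was 4337, 4743 and 3889 CPM in controls and 6085, 5820.3 and 6186 CPM in DNMT3b libraries. The count of 32 rested on single libraries: it was 5 without DNMT3b library 3, 10 without control 3, 13 without DNMT3b library 2, 14 without control 1 and 21 without DNMT3b library 1, while the median stayed between 0.42 and 0.59.

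Other fuel genes moved less uniformly. In the fatty acid oxidation list 5 of 29 genes rose and 1 fell, where 3.52% of all genes were higher and 2.12% lower. The coactivator gene Ppargc1a, a regulator of mitochondrial genes, went from 2.93, 5.20 and 2.66 CPM to 10.1, 9.35 and 12.4 CPM (log2 fold change 1.56, SE 0.25, adjusted p = 0.00523), its relative Ppargc1b rose by 1.22, and the long-chain acyl-CoA dehydrogenase gene Acadl by 1.00. Cpt1a, the liver form of the carnitine transferase that admits fatty acids to mitochondria, fell by 0.61 (adjusted p = 0.0117). In the list of glycolysis and hypoxia genes 4 of 36 rose, among them the muscle isoforms Pgam2 (1.64) and Eno3 (1.21), and the glucose transporter gene Slc2a3 fell by 0.88. Control 2 was high for that list, with a summed 6535 CPM against 3455 and 3732 CPM in controls 1 and 3 and 5113 to 5702 CPM in the DNMT3b libraries, and without it 25 of 36 rose. All 25 tested genes of cholesterol synthesis and uptake had a log2 fold change below 0, with a median of -0.33, and 2 fell. These were Hmgcs1, the synthase that feeds the mevalonate pathway, and Hsd17b7 (adjusted p = 0.0441 and 0.0469), and each lost the call in 11 of 18 other settings. In fatty acid synthesis Acly, the ATP citrate lyase gene, fell by 0.57, and Acacb and Thrsp rose by 1.21 and 2.61. Thrsp was very low, with 2, 9 and 4 reads in controls and 41, 20 and 32 in DNMT3b libraries. Its call was lost in 2 of 17 other settings. None of 65 cytosolic ribosomal protein genes or 32 lysosome and autophagy genes changed by edgeR's test. At an unadjusted p under 0.05 1 ribosomal gene was lower and 2 lysosome genes were higher and 8 lower, and in other settings at most 2 ribosomal genes rose while up to 2 lysosome genes rose and 3 fell.

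Markers of the other cell types in the ventricle moved in several directions. Of 12 fibroblast markers 4 fell and none rose, against 2.12% and 3.52% of all genes, with a median of -0.42. Thy1, a surface protein of mesenchymal cells, went from 239, 224 and 249 CPM to 99.998, 153 and 137 CPM (log2 fold change -0.87, adjusted p = 0.019). The proteoglycan gene Dcn fell by 0.89 and the transcription factor gene Tcf21 by 0.52, while Col1a1 had a log2 fold change of -0.16 (adjusted p = 0.624). The summed fibroblast level overlapped, at 38163 to 57889 CPM in controls and 36833 to 43585 CPM in knockdown libraries, and no marker kept its call without control 3 or without DNMT3b library 3. Of 14 epicardial markers Upk3b fell by 0.79 and Tcf21, which is on both lists, fell too. The keratin gene Krt18, also found in other epithelia, rose from 35.8, 24.6 and 18.5 CPM to 60.6, 72.4 and 69.7 CPM (log2 fold change 1.36, adjusted p = 0.0263). The call of Upk3b was lost in 7 of 18 other settings and that of Krt18 in 6. Vcam1, the sort antigen, had a log2 fold change of -0.11 (adjusted p = 0.632).

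Endothelial markers had a median log2 fold change of 0.93, but 1 of 15 rose, where 3.52% of all genes were higher and 2.12% lower. That gene was Kdr, the main VEGF receptor, at 1.78, 2.54 and 1.74 CPM in controls and 4.00, 4.11 and 4.21 CPM after knockdown (adjusted p = 0.0276). The call of Kdr was lost in 5 of 18 other settings, among them without each of the DNMT3b libraries in turn. The cadherin gene Cdh5 had 10.3, 26.0 and 12.4 CPM in controls and 28.5, 30.8 and 33.5 CPM after knockdown, so control 2 lay next to the knockdown libraries. Without control 2, 4 of the endothelial markers rose. The summed endothelial level was 195 to 249 CPM in controls and 279 to 302 CPM in DNMT3b libraries. Macrophage and leukocyte markers had a median of -0.76, and their summed level was 163 to 203 CPM in controls and 101.4 to 121 CPM in the knockdown libraries. Of 18 members 1 fell: Lcp1, the actin-bundling protein L-plastin, from 131, 116 and 112 CPM to 72.9, 53.7 and 52.1 CPM (log2 fold change -1.01, SE 0.13, adjusted p = 0.00154). Lcp1 carried the separation of the sums: without it, a value added after the data were seen, the other 17 members summed to 32.4 to 90.8 CPM in controls and 28.5 to 68.8 CPM after knockdown, which overlap. Smooth muscle markers (14 tested, median 0.55) had no call by edgeR's test, with 6 at an unadjusted p under 0.05, and 6 rose without control 2. Schwann and neural genes (7 tested) had none either, with 1 at an unadjusted p under 0.05 and at most 1 in other settings, and of 13 erythroid genes in the files 12 were too low to test and 5 were at 0 in every library. The part of these cell types in the changes of other genes was not tested.

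**Figure D4:**
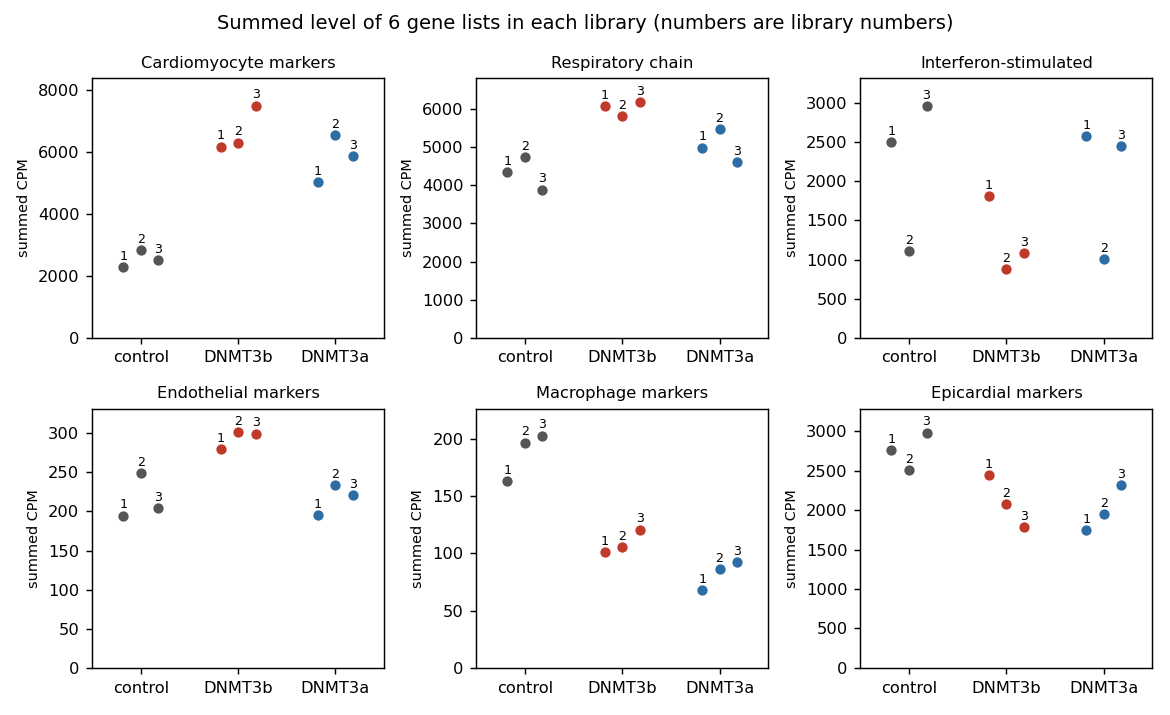
Summed CPM of 6 gene lists in each of the 9 libraries, with the library number above each point. Cardiomyocyte, endothelial, macrophage and epicardial markers and the respiratory chain separate the control from the DNMT3b libraries, although without their most abundant members, Lcp1 and Upk3b, the macrophage and epicardial sums overlap. Interferon-stimulated genes are low in every library numbered 2 and in DNMT3b library 3.

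Interferon-stimulated genes, the antiviral set switched on by interferon signalling, were lower without passing the test. Of 40 tested members 39 had a log2 fold change below 0 and the median was -1.08, yet none fell by edgeR's test, while 4 had an unadjusted p under 0.05 and a lower level and 1 fell by DESeq2. Their summed level was 2506, 1111 and 2967 CPM in controls and 1817, 875 and 1083 CPM in DNMT3b libraries, so control 2 lay within the knockdown range. The antiviral gene Ifit1 shows the spread, at 110.2, 22.5 and 124 CPM in controls and 63.2, 12.3 and 23.9 CPM after knockdown (log2 fold change -1.37, adjusted p = 0.43). Without all libraries numbered 2, an alternative added after the data were seen, 12 members fell. The member that rose was Ifi27 (log2 fold change 0.75, adjusted p = 0.00937). Of 21 genes of MHC class I and antigen processing none changed by edgeR's test, with a median of -0.68. There 5 members had an unadjusted p under 0.05, and 3 fell by DESeq2. The summed interferon level was low in all libraries numbered 2 and in DNMT3b library 3, and its part in the other results was not tested.

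Of 28 tested chemokine, cytokine and acute inflammation genes 3 rose, against 3.52% of all genes, and none fell. Cxcl1, a neutrophil-attracting chemokine (chr5:90891241-90893115, plus strand), went from 0.641, 0.813 and 0.925 CPM to 4.27, 3.27 and 3.22 CPM (log2 fold change 2.18, SE 0.26, adjusted p = 0.000958). Cx3cl1, the chemokine fractalkine, went from 20.3, 19.7 and 18.3 CPM to 34.8, 30.9 and 32.7 CPM (log2 fold change 0.75, SE 0.09, adjusted p = 0.000802). Both sets of controls were tight and well below the knockdown libraries. Saa3, an acute-phase protein, rose by 1.96 (adjusted p = 0.0205), while the cytokine gene Il6 had a log2 fold change of 0.21 (adjusted p = 0.697). Saa3 lost the call in 5 of 18 other settings.

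Secreted signals and their receptors changed in both directions. In the FGF, PDGF, VEGF and IGF list 3 of 46 rose and 3 fell. Pdgfb, a platelet-derived growth factor chain, went from 4.51, 6.63 and 5.92 CPM to 11.2, 14.5 and 13.8 CPM (log2 fold change 1.21, SE 0.17, adjusted p = 0.00227). Vegfd, a ligand of the lymphatic VEGF receptor, went from 132, 90.8 and 89.4 CPM to 54.6, 47.1 and 47.1 CPM (log2 fold change -1.07, SE 0.16, adjusted p = 0.00545). The highest knockdown library was below the lowest control. Of 45 guidance cues and receptors 3 rose and 3 fell: Robo1, Ntn4 and Nrp1 rose by 0.79, 1.02 and 0.62, and Sema3e, Slit2 and Sema4a fell. Of 41 Wnt genes 2 rose, the R-spondin gene Rspo3 (0.88) and the R-spondin receptor gene Lgr4 (0.70, adjusted p = 0.000691), and 2 fell, Nkd2 and Wnt5a. Among 41 TGF-beta and BMP genes Smad1 fell by 0.36. Of 21 Notch genes Jag2 rose by 0.64, and of 19 retinoic acid genes Aldh1a1 fell by 0.75. In the list of YAP and TEAD targets Ccn2 and Ankrd1 rose and Amot fell by 0.55. The call of Amot was lost in 6 of 18 other settings, those of Jag2 and Aldh1a1 in 5 each, and that of Smad1 in 4. Counts of 1 to 3 members stand beside the background of 3.52% higher and 2.12% lower, and no list is singled out from them.

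Matrix genes changed at single members. Their counts stand beside 3.52% higher and 2.12% lower over all genes, and no list is singled out from them. Of 34 collagens 2 rose, the paired basement membrane chains Col4a3 and Col4a4, whose genes lie head to head on chromosome 1. Col4a3 went from 8.05, 5.92 and 4.96 CPM to 24.8, 22.5 and 24.5 CPM (log2 fold change 1.92, SE 0.21, adjusted p = 0.000802), and Col4a4 rose by 1.31 (adjusted p = 0.00874). Col16a1 fell by 0.62. Of 49 matrix glycoproteins and proteoglycans 4 fell and 2 rose, with Thbs4, thrombospondin 4, rising by 1.79. Of 33 proteases and inhibitors Mmp15 rose by 1.55, and Timp3, Mmp3 and Mmp11 fell. Of 30 integrins and laminins 4 rose, among them Itga9 (0.81) and Itgb3 (0.86), and Lama1 fell by 1.10.

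The DNA replication and mitosis lists had no calls, and stress lists had a few. Ccnd2, the cyclin gene that fell, is on neither of the first lists. None of 40 DNA replication genes and none of 40 mitosis genes changed by edgeR's test, with medians of -0.03 and 0.08. At an unadjusted p under 0.05 there were 0 and 3 members, and other settings called 0 and at most 2. Of 30 p53 targets Btg2 and Perp rose by 0.61 and 0.91, and Perp lost the call in 6 of 18 other settings. Among 26 apoptosis regulators Bik, a death-promoting BCL2 relative, rose by 1.25 and Cflar, an inhibitor of caspase 8, fell by 0.68. Of 35 genes of the ATF4 and amino acid response 4 fell, against 2.12% of all genes, and none rose, and 13 were lower at an unadjusted p under 0.05. Mthfd2, a mitochondrial enzyme of one-carbon metabolism, went from 81.9, 75.1 and 80.8 CPM to 54.1, 38.8 and 42.5 CPM (log2 fold change -0.81, SE 0.11, adjusted p = 0.00262), and Atf5, Gpt2 and Slc7a1 fell by 0.97, 0.61 and 0.52. DNMT3b library 1 was nearest the controls for this list: without it 13 members fell, and without DNMT3b library 2 or 3, 1 did. Of 24 chaperones 3 rose, against 3.52% of all genes: Hspa4l, Cryab and Dnajb4 by 0.55, 0.35 and 0.29. Dnajb4 lost the call in 14 of 18 other settings and Cryab in 5, and the count ran from 1 to 3 over them. The unfolded protein response lost 1 of 25 members, Dnajc10, and the antioxidant list had Sod2 higher and Nqo1 lower by 1.17. Immediate early genes split, with Arc, Btg2, Ier3 and Errfi1 higher and the zinc-finger factors Klf2 and Klf4 lower. Klf2 went from 45.3, 57.2 and 70.7 CPM to 25.5, 21.7 and 24.6 CPM (log2 fold change -1.27, SE 0.19, adjusted p = 0.0043).

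Germline and imprinted genes, classes that DNA methylation is known to hold silent, showed few changes. So did Hox and Polycomb genes, which were listed separately as chromatin genes. Of 28 germline genes 17 were too low to test. Of the 11 tested, Mov10l1, an RNA helicase of the piRNA pathway, rose from 0.613, 1.07 and 0.370 CPM to 2.61, 2.01 and 1.61 CPM (log2 fold change 1.59, SE 0.34, adjusted p = 0.0207). It stood at 2.18 ± 0.114 CPM in the DNMT3a libraries (SD, n = 3). Mov10l1 had 22, 33 and 10 reads in controls 1 to 3, and its call was lost in 5 of 18 other settings. Counts per gene do not tell its transcript forms apart. Of 34 imprinted genes Mest and Ddc rose and Dcn fell. Mest went from 25.6, 29.4 and 25.3 CPM to 40.1, 57.3 and 60.0 CPM (log2 fold change 0.97, SE 0.20, adjusted p = 0.0211), and Ddc, dopa decarboxylase, rose by 0.95 (adjusted p = 0.0045). None of 12 tested Hox genes changed by edgeR's test, DESeq2 or any other setting, and none had an unadjusted p under 0.05, and of 23 Polycomb genes Jarid2, a cofactor of the H3K27 methylase complex, fell by 0.47 (adjusted p = 0.0256). Jarid2 lost the call in 5 of 18 other settings and Mest in 4. The counts of these lists are near the background share of 3.52% higher and 2.12% lower. Methylation at these genes was not analysed here.

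DNMT3b and DNMT3a siRNA were set against each other directly, in the same fit of 9 libraries and with the same DNMT3b libraries as above. The control libraries entered that contrast only through the shared spread, scaling and filter. Of the 16561 genes 841 (5.08%) were higher and 741 (4.47%) lower after DNMT3b siRNA. Of 34 sarcomere genes none was higher and 1 lower in the DNMT3b libraries, and of 34 calcium handling and channel genes 3 were higher and 1 lower. Ryr2 and Lrrc10 were higher than after DNMT3a siRNA by 0.65 and 0.69 (adjusted p = 0.0399 and 0.0394). Summed cardiomyocyte markers overlapped, at 6161 to 7481 CPM and 5026 to 6529 CPM. For the largest rise, Hopx, the difference from DNMT3a siRNA was 0.73 on the log2 scale (adjusted p = 0.225), and for Nebl it was 0.30 (adjusted p = 0.145). Of the respiratory chain 7 of 55 were higher than after DNMT3a siRNA, with Uqcrfs1 higher by 0.33 (adjusted p = 0.0151). Nppb was lower, with a log2 difference of -1.09 (adjusted p = 0.0017).

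Some genes differed from both other groups. Of the 583 genes higher than control, 124 were higher than after DNMT3a siRNA, 9 lower, and 450 did not pass. Of the 351 lower genes, 149 were lower, 12 higher, and 190 did not pass. Over all genes 5.08% were higher and 4.47% lower in that test, which shares the DNMT3b libraries with the first. Among the 12 largest falls 5 passed the same way, and among the 12 largest rises 1 did. Cdkn2aipnl had 13.5, 17.4 and 15.5 CPM after DNMT3a siRNA, close to the controls, and its log2 difference between the knockdowns was -1.70 (SE 0.14, adjusted p = 0.000248). Trim12c, Mdfic, Pid1 and Sema3e were also lower than after DNMT3a siRNA, with log2 differences of -1.45, -1.02, -0.85 and -0.64. Cxcl1 had 0.617, 0.879 and 1.01 CPM after DNMT3a siRNA, so its level was high in the DNMT3b libraries alone among these 9 (log2 difference 2.10, adjusted p = 0.00135). Vegfd, Mthfd2 and Jarid2 were lower than after DNMT3a siRNA, with log2 differences of -1.38, -0.92 and -1.15, and Jarid2 was higher in the DNMT3a libraries than in controls, at 55.9 ± 5.35 against 34.9 ± 4.30 CPM (SD, n = 3).

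A few further genes were chosen after their values were seen, because they passed both tests. Prkaca and Prkar1a, a catalytic and a regulatory subunit of cyclic AMP-dependent kinase, were higher. Prkar1a went from 576, 603 and 571 CPM in controls to 829, 762 and 853 CPM, and had 508, 566 and 529 CPM after DNMT3a siRNA. Its log2 fold change over control was 0.48 (SE 0.08, adjusted p = 0.00697), and Prkaca rose by 0.39 (adjusted p = 0.0151). Prkacb, the other main catalytic subunit, and Pkia, a peptide inhibitor of the kinase, fell by 0.48 and 0.34 (adjusted p = 0.00224 and 0.0468). Rcan1 and Rcan2, regulators of the phosphatase calcineurin, rose by 1.30 and 0.72. Frem2, an extracellular matrix protein of epithelia, had 21.7, 21.1 and 16.8 CPM in controls, 78.6, 77.2 and 91.2 CPM after DNMT3b siRNA and 45.7, 40.8 and 34.8 CPM after DNMT3a siRNA, 3 levels that did not overlap. Tmem65, a membrane protein of mitochondria and intercalated discs, moved in opposite directions from the controls, with 85.7, 93.1 and 95.5 CPM there, 62.2, 61.6 and 64.1 CPM after DNMT3b siRNA and 115, 115 and 127 CPM after DNMT3a siRNA. The kinase gene Wnk1 and Srgap1 fell by 0.52 and 1.02 against control.

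**Figure D5:**
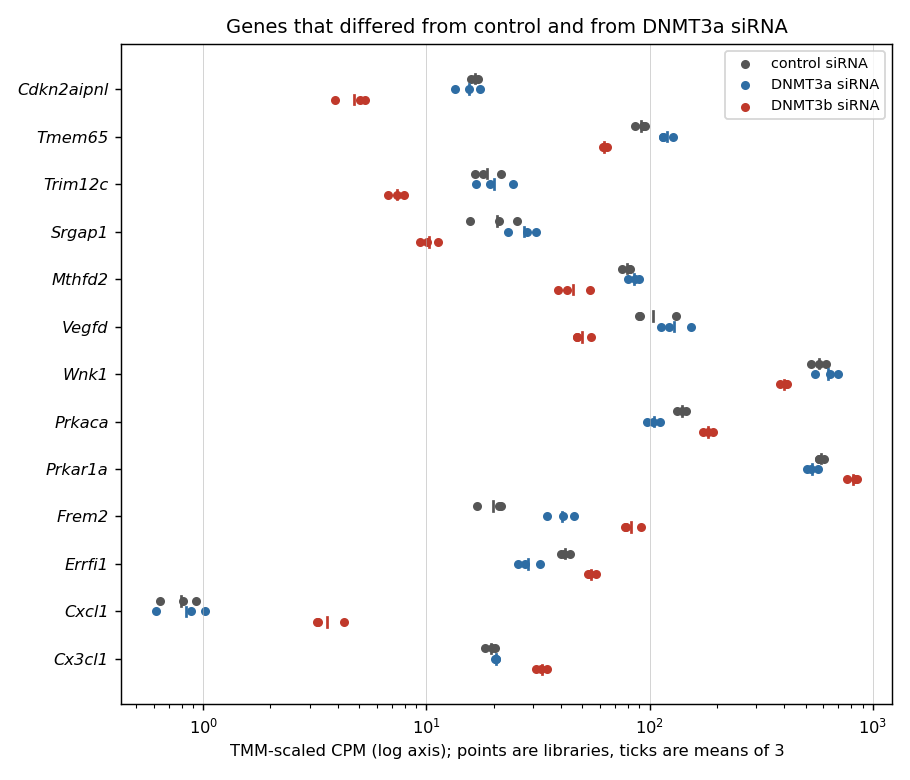
TMM-scaled CPM on a log axis in control, DNMT3a and DNMT3b libraries for 13 genes that differed in both tests, 7 of them chosen after their values were seen. Cdkn2aipnl, Trim12c and Cxcl1 have DNMT3a points beside the controls, while Frem2 and Tmem65 show 3 separate levels.

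The class, length and place of the changed genes are given as a description. Of 13787 protein-coding genes tested 544 (3.95%) rose and 342 (2.48%) fell. Of 1029 long non-coding genes 13 (1.26%) rose and none fell, against 3.52% and 2.12% of all genes. By average log2 CPM, the share that fell was 0.117% under 0, 0.791% at 0 to 2, 4.16% at 6 to 8 and 3.91% above. The share that rose in these bands was 1.48%, 4.00%, 3.87% and 4.25%. Abundance was not separated from class or length. The non-coding rises with the smallest adjusted p were C130080G10Rik (log2 fold change 1.96), 9330158H04Rik (2.20) and Gm26777 (3.13). Each shares exon sequence with a neighbour, Gm26777 with Galnt16 on the opposite strand. Gm26777 was very low, with 5, 1 and 4 reads in controls and 18, 42 and 28 in DNMT3b libraries. Galnt16, a glycosyltransferase gene chosen after its value was seen, rose by 1.84 itself. Fallen genes had a median exonic length of 5963 bases, against 3991 for risen and 3974 for all tested genes. Over quartiles of length of protein-coding genes, from shortest to longest, the share that fell was 1.25%, 1.57%, 2.84% and 4.26%, and the share that rose was 4.64%, 4.09%, 3.13% and 3.92%. Risen genes took 2.54% to 2.86% of the counts in control libraries and 4.51% to 4.98% in DNMT3b libraries, and fallen genes 3.75% to 4.04% and 2.66% to 2.86%, values fixed by how the genes were called. Over the autosomes the share that rose ran from 2.23% on chromosome 13 to 4.91% on chromosome 10, and the X chromosome held 16 higher and 19 lower of 658.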

How the data were processed

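Per the labels' protocols, poly(A) RNA of the sorted cells was sequenced on an Illumina NextSeq500. The authors deposited whole-number read counts per gene, 1 table per library, listing 43629 genes followed by 5 lines of unassigned reads, which were dropped. FastQC, TopHat2, HTSeq and the mm10/GRCm38 build are named in the submitters' processing notes. For the strand setting and annotation release the sources used here give nothing, and non-unique alignments (36.6% to 42.5% of each table's total) were left out of genes, so close paralogs are undercounted. Symbols and coordinates were taken from GENCODE vM21.

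From the deposited counts, edgeR 4.0.16 (R 4.3.3) was run on 9 libraries in 1 fit: filterByExpr with a minimum count of 10, TMM scaling, robust quasi-likelihood F test, two-sided, Benjamini-Hochberg adjustment over 16561 genes. CPM are TMM-scaled. Alternatives used DESeq2 1.42.0, limma 3.58.1, other scaling, filters, samples and a replicate block. On simulated counts for this comparison (16339 genes) the test recovered 76% of 100 genes given a 2-fold change. For 100 given a 1.5-fold change it recovered 41%. Of its 134 calls 12.7% were false, above the share of 0.05 that the threshold aims at. No other gene was changed there, while 5.64% of genes were called in the data, and each simulated library varied independently. These shares therefore need not hold for the data. Genes were named by rule: 6 fixed genes, the 12 largest rises and falls with separate groups, the 4 most abundant changes each way, up to 3 changes per list (47 lists) and up to 3 non-coding genes each way. Other members that complete a list's count or show its spread (such as Kcnj5, Cpt1a, Cox8a, Cdh5 and Ifit1) were chosen after their values were seen. A few results that the rule would name are not reported here. The comparison, the lists and the rules were chosen with earlier results of these data known. Same-numbered control and DNMT3b libraries deviated together only weakly (r = 0.212, 0.101 and 0.0334), so the numbers were not taken to pair them. Control and DNMT3a libraries were not correlated in this way, so pairing by number between those groups was not tested. On the axis of largest variance over all 9 libraries, control 2 lay at 5.17 and controls 1 and 3 at -27.8 and -26.7. DNMT3a library 2 moved the same way, at 10.1 against -14.1 and -10.9 for DNMT3a libraries 1 and 3.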

Additional observations from a re-analysis of the deposited data

How the results depend on the processing

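The count of 934 changed genes (583 higher, 351 lower) became 350 (295 and 55) when a 2-fold change was also asked, 1715 (879 and 836) with DESeq2, and 1801 (980 and 821) with the replicate number as a block. The block took the count against DNMT3a siRNA from 1582 to 2513. Numbers do not pair the libraries by the labels, and control 2 deviated about as much with DNMT3b library 3 (r = 0.105) as with its own number (r = 0.101), so the block is only a hint; under it 14 interferon-stimulated genes fell. Without the filter on low counts 602 genes were lower, and without all libraries numbered 2, added after the data were seen, 543 were. Leaving out 1 library at a time gave 287 to 1781 changed genes, 218 to 1010.0 higher and 69 to 771 lower, and 524 to 1962 against DNMT3a siRNA. The log2 fold change of Dnmt3b ranged from -1.69 to -1.13 and missed the threshold only without DNMT3b library 3, at -1.28. Other scalings, limma-voom and the fit of the 6 libraries alone gave 862 to 965 changes. At 3 libraries a group, 1.5-fold changes were often missed on simulated counts, which held few changed genes and no shift shared within a library. Dnmt3b itself rests on 38 to 155 reads. The planned split by promoter CpG content was not run, because promoters were found for 79.1% of protein-coding genes, below the 80% set for such a check. No cause of these differences was tested.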

Other observations

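Several genes with large differences did not pass, or passed at very low levels, and were picked out after their values were seen. Rps3a3, a copy of a ribosomal protein gene on chromosome 13, was at 0.167, 20.9 and 27.9 CPM in controls 1 to 3, at 0.0325, 15.0001 and 17.9 CPM in DNMT3a libraries 1 to 3, and at 0.0307, 0.0647 and 0.0351 CPM in the DNMT3b libraries. It was therefore near 0 in 5 of 9 libraries: control 1, DNMT3a library 1 and every DNMT3b library. The remaining control and DNMT3a libraries held at least 15.0001 CPM, so the level of this gene followed the library number in those groups. It did not do so after DNMT3b siRNA. Whether litters or cultures were shared by number, or differed for the DNMT3b libraries, was not tested. The log2 fold change of Rps3a3 over control was -8.42, with an adjusted p of 0.132 by edgeR's test. As a copy of an expressed gene its count is uncertain. Ly6a, a surface antigen that interferon induces, passed with 3.23, 0.748 and 3.92 CPM in controls and 0.184, 0.162 and 0.315 CPM after DNMT3b siRNA (log2 fold change -3.57, adjusted p = 0.0395). Among rises, Myadml2 went from 0.0279, 0.0976 and 0.0370 CPM to 0.553, 0.712 and 0.561 CPM (log2 fold change 3.41, adjusted p = 0.00528), from a handful of reads in controls.

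The imprinted neighbours H19 and Igf2 on chromosome 7 varied between libraries more than between groups. Igf2 had 946, 2362 and 611 CPM in controls and 1553, 2275 and 2380 CPM after DNMT3b siRNA (log2 fold change 0.66, adjusted p = 0.541), and H19 had 862, 2937 and 874 CPM and 1509, 2348 and 2263 CPM. Control 2 was the highest control for both genes, as it was for summed glycolysis genes and fibroblast markers.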
